A study of Mus musculus with 8 samples.

Results

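The 10 immediate early genes described here are Fos, Fosb, Jun, Junb, Jund, Egr1, Atf3, Ier2, Ier3 and Zfp36, which were taken by symbol as 10 of the 27775 gene rows in each of 2 single-cell RNA count tables. Each symbol names 1 row. The tables hold untreated pancreatic ductal adenocarcinomas of KPC mice, 1 of medium size and 1 of large size, so each size is 1 tumor. Among the alleles of these mice are LSL-Trp53R172H/+ and a Cre driven by the Pdx-1 promoter, which acts in pancreatic lineages, and both groups share the same genotype. The age of the animals was not given in the sources used here. The tumors were broken up by machine and enzyme (Miltenyi gentleMACS, Mouse Tumor Dissociation Kit) and captured with 10x Genomics 3′ chemistry (v2). The labels list 4 technical replicates per tumor, which are pooled in the tables, and no replicate tumor exists, so no test was possible and no p-value is given.

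Immediate early genes are transcribed within minutes of a stimulus, without new protein synthesis, through factors that already sit in the cell, such as SRF with its ELK partners and CREB, which are switched on by ERK, p38 and JNK signaling. FOS and FOSB pair with JUN, JUNB or JUND to form the AP-1 transcription factor. EGR1 is a zinc finger activator, ATF3 a stress-induced factor of the ATF/CREB family, IER2 and IER3 are early response proteins, and ZFP36 (tristetraprolin) speeds the decay of mRNAs with AU-rich elements, among them those of several cytokines. Enzymatic dissociation of fresh tissue is known to induce these genes together with heat shock genes, and no undissociated sample was analysed here, so a level present in the tumor and one raised during dissociation cannot be told apart in these data.

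RefSeq promoter windows (build GRCm38.p6) were used for 8 of the 10 genes, without Egr1 and Ier2. Searched on both strands over the 250 bases before the start, TGACG, the core of the CREB and ATF binding element, was found in 4 of those 8 windows (Fos, Fosb, Junb and Atf3) and in 17.8% of all 32851 windows. The 120 bases before the start of these 4 genes are shown, 5′ to 3′ on the gene's strand, because they share this core, which stands in capitals (CGTCA where it lies on the other strand).
Fos: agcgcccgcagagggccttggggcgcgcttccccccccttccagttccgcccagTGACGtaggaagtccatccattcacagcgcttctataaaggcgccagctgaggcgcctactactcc
Fosb: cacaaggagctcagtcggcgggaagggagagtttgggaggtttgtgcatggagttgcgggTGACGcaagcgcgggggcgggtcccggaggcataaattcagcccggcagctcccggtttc
Junb: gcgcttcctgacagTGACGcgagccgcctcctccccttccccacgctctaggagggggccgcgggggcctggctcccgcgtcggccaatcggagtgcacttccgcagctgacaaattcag
Atf3: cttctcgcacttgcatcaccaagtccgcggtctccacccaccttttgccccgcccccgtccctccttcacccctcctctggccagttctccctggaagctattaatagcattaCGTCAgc
The Fos stretch lies at chr12:85473770-85473889 (plus strand), the Fosb stretch at chr7:19310046-19310165 (minus strand), the Junb stretch at chr8:84978749-84978868 (minus strand) and the Atf3 stretch at chr1:191183334-191183453 (minus strand). All 4 end at the base before the RefSeq start. In GENCODE vM21, Fos spans chr12:85473890-85477273, Fosb chr7:19302696-19310051, Junb chr8:84974484-84978718 and Atf3 chr1:191170296-191218039, so the Atf3 stretch lies inside a longer gene model and the last bases of the Fosb stretch overlap its first exon. Fos has a second TGACG from 129 to 125 bases before the start, outside the printed stretch, and its TATAAA lies from 33 to 28 bases before the start. TATAAA was found in 1 of the 8 windows and in 12.4% of all windows. The EGR site GCGNGGGCG was found in 2 windows (Fosb and Zfp36) and in 4.70% of all, and the serum response element, by its CArG motif, in 1 window (Zfp36) and in 1.47% of all. The AP-1 site TGACTCA was in none of the 8 windows and in 4.46% of all. The full CREB and ATF element TGACGTCA was also in none of the 8, and in 1.55% of all. The CCAAT box was in 3 windows (Jun, Junb and Ier3) and in 33.85% of all. A match says only that the letters are present. Sites of Egr1 and Ier2, and sites more than 250 bases before any start, were not searched.

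The 2812 cells of the medium size tumor held 20301669 UMIs (counted mRNA molecules), a median of 5456.5 per cell. In the large size tumor 1533 cells held 2239012 UMIs, with a median of 1037. Levels are therefore far less precise in the large size tumor. They are given as CPM, UMIs of a gene per 1000000 UMIs of a group of cells, with exact 95% Poisson intervals, and shares of cells with exact binomial intervals, both for counting error only. Cells were clustered on genes other than these 10 and the other genes listed, so that the members do not define the clusters, and a cluster carries a cell class name ending in "-like" only from marker genes. The 9 epithelial-like clusters of the medium size tumor and the 5 of the large size tumor are taken as the carcinoma cells, and whether each is malignant was not tested. The tables share 5 cell barcodes.

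In the medium size tumor the 10 genes were present in every cell class. Their summed level was 4412 CPM (4381 to 4443) in the 2328 epithelial-like cells, 5622 CPM (5469 to 5779) in the 235 monocyte/macrophage-like cells and 7022 CPM (6693 to 7363) in the 39 endothelial-like cells. The highest sum, 7759 CPM (7510.5 to 8013.5), was in cluster 11, 85 cells led by Dcn, Rarres2 and C3 that carried mesothelial as well as stromal markers and were left unnamed. The intervals of these 4 groups do not overlap. Fos gave 23.15% of the summed UMIs of all cells, so the sum weighs the members unequally.

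Between the monocyte/macrophage-like and the epithelial-like cells the members differed in both directions. Ier3, an early response gene also known as IEX-1 that NF-κB induces, stood at 1651 CPM (1569 to 1737) in the monocyte/macrophage-like cells and at 329.8 CPM (322 to 338) in the epithelial-like cells, a ratio of 5.01 (4.73 to 5.30). Zfp36 was 2.16-fold higher (1.86 to 2.49), at 227 against 105 CPM. Atf3 went the other way, at 189.5 against 414 CPM, 2.18-fold lower (1.88 to 2.555). Junb, at 1159 against 618 CPM, was 1.88-fold higher (1.76 to 2.00) and Jund, at 182 against 315 CPM, 1.73-fold lower (1.48 to 2.03). Both stayed inside the 2-fold line that marks a call here, computed after adding 10 CPM to each side. The core AP-1 pair was closer, with Fos at 871 against 1043 CPM and Jun at 313 against 423 CPM, and Ier2 stood at 317 against 312 CPM, with an interval of the ratio from 0.899 to 1.14. Thus 2 of 10 members passed 2-fold upward and 1 downward, against 6.13% and 14.5% of all 9401 genes tested. The 2.29 log2 ratio of Ier3 ranged from 2.05 to 2.63 over the alternative settings, while the Zfp36 call was lost in 3 of them and the Atf3 call in 3, and with TMM scaling Fos and Fosb changed sign (0.01 and 0.16 on the log2 scale, against -0.26 and -0.10). Fosb also did so at a resolution of 0.4 (0.08) and without cluster 1 (0.21), and Ier2 ran from -0.14 to 0.29 around its 0.02. TMM scaling moved the median log2 ratio of all genes from -0.33 to -0.16, and 40.6% instead of 29.7% of the calls were then upward, Junb among them.

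**Figure D1:**
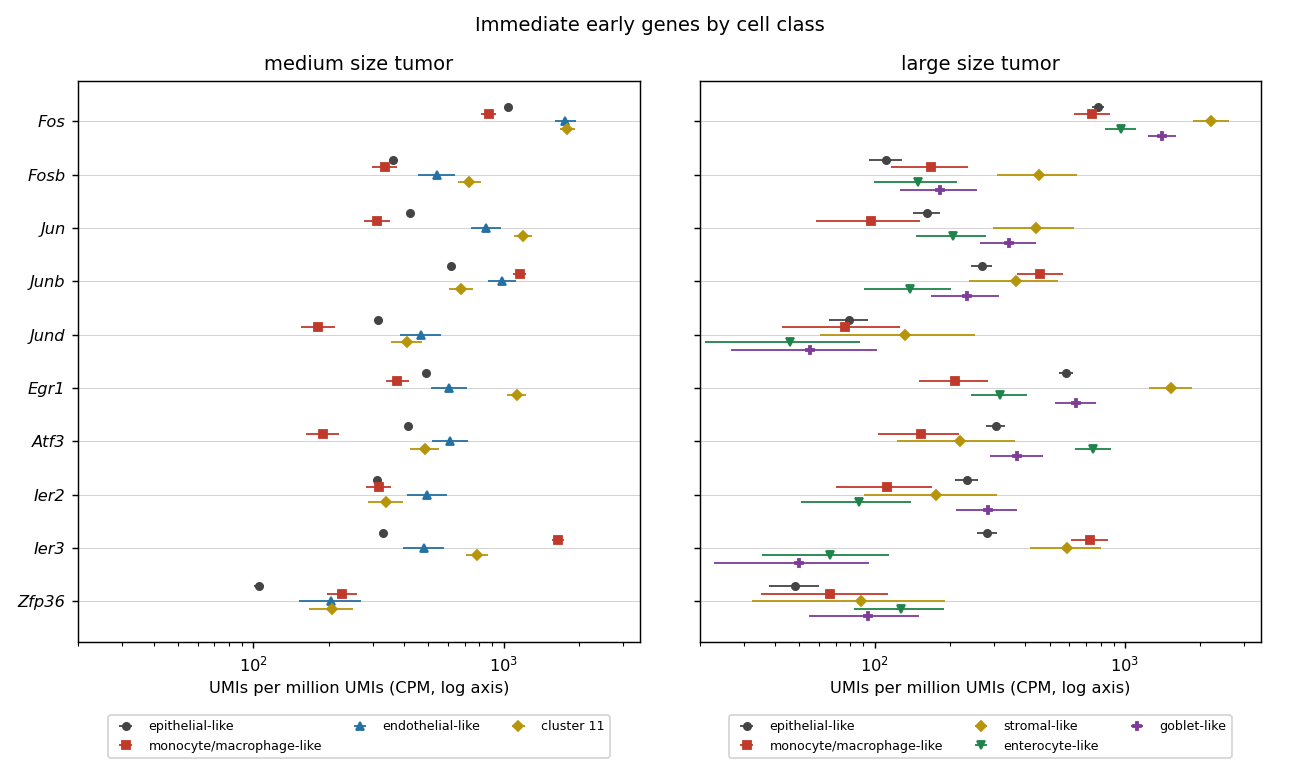
Level of each of the 10 genes by cell class in the medium (left) and large (right) size tumor, as CPM on a log axis, with exact 95% Poisson intervals as bars. Ier3 in monocyte/macrophage-like cells (1651 CPM in the medium, 724 CPM in the large size tumor) lies to the right of the epithelial-like cells in both panels, and Ier3 in enterocyte-like and goblet-like cells (66.6 and 49.9 CPM) lies far to their left.

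Other genes of the response were counted in the same contrast from lists. Of 38 other early response genes tested, 17 were at least 2-fold higher in the monocyte/macrophage-like cells and 2 lower, with a list median of 0.89 on the log2 scale, where the median of all genes was -0.33. Among the higher ones were the orphan nuclear receptor genes Nr4a3 (146.5 against 6.66 CPM) and Nr4a2 (246 against 30.6 CPM), the phosphatase gene Dusp2 and the NF-κB inhibitor gene Nfkbia (1587 against 249 CPM). The 2 lower ones were Ctgf and Cyr61, which encode matricellular proteins. Of 10 tested mRNAs known to be bound by ZFP36, 7 were higher, among them Cxcl2 (8955 against 168 CPM), Il1b and Tnf, and this list includes Ier3. These counts, and those of the next lists, stand against the same 6.13% of all genes higher and 14.5% lower. Of 10 AP-1 relatives 1 was higher, Fosl2, and 1 was lower, Atf5. Of 11 ERK feedback genes none was higher and 4 were lower (Etv4, Dusp4, Spry2 and Dusp6). Among 20 regulators of early response promoters, 1, Crem, was higher and 3 were lower, among them Mapk8. None of 16 heat shock genes was higher and 1, Hspb1, was lower.

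The 39 endothelial-like cells had each member above the epithelial-like level, but none past 2-fold in either direction, against 5.62% of 9254 genes higher and 5.95% lower. The nearest was Jun, at 854 against 423 CPM, whose ratio was 2.02 (1.75 to 2.32) before 10 CPM were added to each side. Of 38 other early response genes 14 were past 2-fold higher there, led by Dusp2 and Plk2. Hspa1a stood at 899 against 467 CPM in these cells, and the summed 17-gene heat shock list at 9277 against 8035 CPM, while none of 16 heat shock genes tested was past 2-fold in either direction. In cluster 11, Jun (1197 CPM), Ier3 (787 CPM) and Egr1 (1130 CPM) were past 2-fold, 3 of 10 members against 4.60% of 9306 genes, and none was past 2-fold lower, against 6.58%. In cluster 11, 6 of 17 heat shock genes were past 2-fold higher, with the summed list at 11388 CPM and Hspa1a, the inducible HSP70, at 1163 CPM. Their part in the member levels was not tested. Cluster 13, 59 cells with stromal and smooth muscle or pericyte markers, had a lower sum than cluster 11, at 4466 CPM, and lower levels of most members, among them Jun (687 CPM), Egr1 (577 CPM), Fosb (361 CPM) and Zfp36 (92.1 CPM). Atf3, at 145 CPM, was 2.85-fold below the epithelial-like cells and was 1 of 10 members past 2-fold lower, against 11.7% of 9298 genes. Cluster 12, 66 cells with both epithelial and macrophage markers, had Ier3 at 733 CPM and Zfp36 at 226 CPM. Free RNA in the droplets can carry transcripts between classes. As a gauge, in cells thinned to 2500 UMIs, the keratin gene Krt18 had a UMI in 99.1% of epithelial-like and 29.4% of monocyte/macrophage-like cells, and C1qa in 84.7% of monocyte/macrophage-like and 3.01% of epithelial-like cells. Krt18 was also in 61.5% of endothelial-like cells, and Lyz2, at 99.6% in the monocyte/macrophage-like cells, was in 21.8% of epithelial-like cells. In cluster 11 Krt18 was in 64.7% of cells, but Epcam, another epithelial gene, in 22.35% (68.7% of epithelial-like cells). Whether the Krt18 of cluster 11 is free RNA or the cells' own was not tested. By the same measure Fos had a UMI in 67.3% of epithelial-like and 67.2% of monocyte/macrophage-like cells. In the same order, Ier3 had one in 40.2% and 82.1%, and Atf3 in 42.5% and 27.2%.

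Among the 9 epithelial-like clusters the summed level ran from 2762 CPM (2709 to 2816) in cluster 3, which is led by mitotic genes (Ube2c, Birc5, Cenpf), to 7066 CPM (6968 to 7165) in cluster 1, which is led by Tff3, Ly6d and the Reg genes and holds 11 of 11 epithelial markers. Cluster 5, led by Yap1 and Birc2, was the second lowest at 2929 CPM (2863 to 2996), and its interval does not overlap that of cluster 3. Cluster 9, led by Krt17, had 5962 CPM, cluster 7 (Sox11, Cldn4) 5083 CPM, cluster 4, led by the gastrokine genes Gkn1, Gkn3 and Gkn2, 4947 CPM, and cluster 6, led by Inhba and Bmp2, 4654 CPM. Cluster 6 holds 3 of 11 epithelial markers, and cluster 1 is led by genes that stand in the B-cell and goblet lists.

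The members fell into different orders over these clusters. Fos was highest in cluster 1 (1966 CPM, 1914 to 2018), followed by cluster 4 (1510 CPM), and lowest in cluster 5 (565 CPM, 536 to 595) and cluster 6 (575 CPM), which do not differ beyond their intervals. Its partner gene Fosb was also highest in cluster 1, at 750 CPM, and lowest in cluster 5, at 184 CPM. Jun ran from 969 CPM (933 to 1006) in cluster 1 to 168.5 CPM (153 to 185) in cluster 5, a ratio of 5.75. The other JUN genes spread less: Junb ran from 856 CPM in cluster 6 to 436 CPM in cluster 10, and Jund from 400.5 CPM in cluster 6 to 206.5 CPM in cluster 3. Egr1 was highest in cluster 4 (695 CPM) and cluster 1 (689 CPM), whose intervals overlap, and lowest in cluster 3 (319.9 CPM). Atf3 ran from 874 CPM in cluster 9 to 210.2 CPM in cluster 3. Ier2 was the most even member, from 385 CPM in cluster 4 to 251 CPM in cluster 3, and all 8 neighbouring pairs in its order overlap. Zfp36 was highest in cluster 1, at 224.5 CPM (207 to 243), and lowest in cluster 9, at 53.7 CPM.

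Ier3 stood apart from the rest. It was highest in cluster 6 (967 CPM, 922 to 1014) and cluster 9 (966 CPM, 904 to 1032), and lowest in cluster 4 (110.5 CPM, 94.65 to 128), where Fos and Egr1 were among their highest. In cluster 1, where 4 other members peaked, Ier3 stood at 201 CPM. Its highest level was 8.76 times its lowest. With 10 CPM added to both sides the ratios were 8.11 for Ier3, 5.49 for Jun and 4.01 for Atf3, so 3 of 10 members passed a 4-fold spread, against 9.62% of all 9190 genes tested. Fosb followed at 3.92, Zfp36 at 3.68 and Fos at 3.44, and Ier2 was the least spread at 1.51. The number past 4-fold depended on the clusters: it was 8 with the members and the listed stress and early response genes kept among the variable genes, 6 at a resolution of 1.2, 5 with 1 CPM added, and 1 (Ier3) without clusters 3 and 5. It was 3 without cluster 6 and 2 without cluster 1. The share of all genes past 4-fold was not counted at these other settings.

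**Figure D2:**
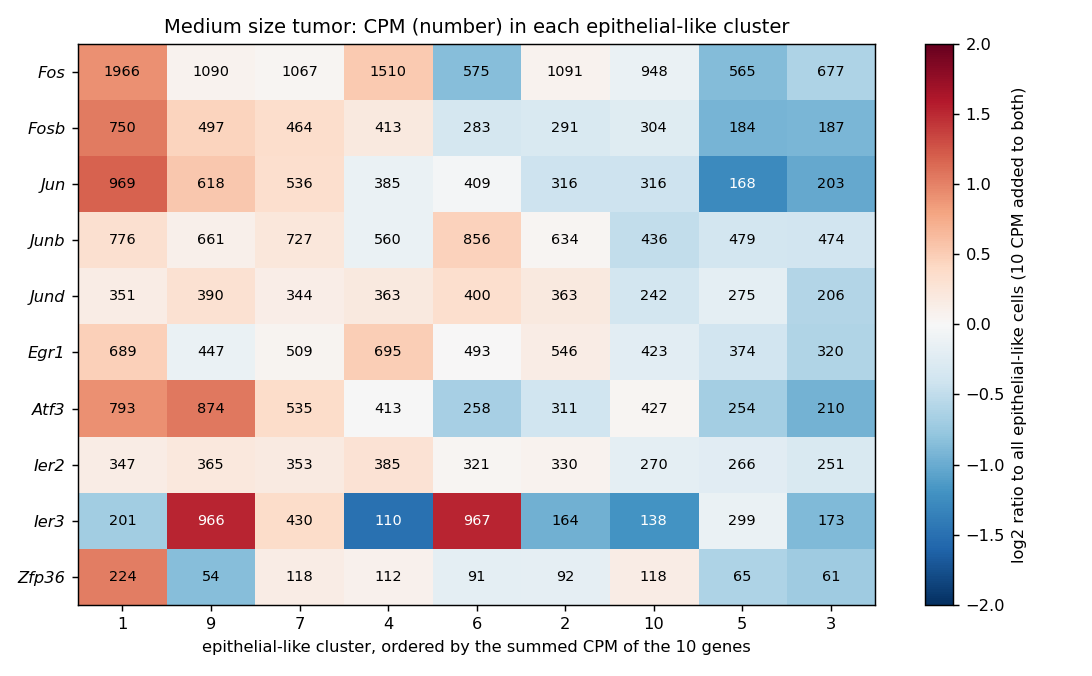
CPM of each of the 10 genes (number in each field) in the 9 epithelial-like clusters of the medium size tumor, ordered by the summed level of the genes, with color for the log2 ratio to all epithelial-like cells after adding 10 CPM to both. Clusters 3 and 5 on the right are blue for nearly every gene, and the row of Ier3 has its deepest red fields at clusters 9 and 6 (966 and 967 CPM), a pale one at cluster 7 (430.0 CPM) and its deepest blue at cluster 4 (110.5 CPM).

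The clusters also differ in depth, and in the medium size tumor depth moved with the sum. Over the 15 clusters of the medium size tumor, Pearson's r between the log2 summed level and the log2 median UMIs per cell was -0.78, and clusters 3 and 5 have the deepest cells, with medians of 9305.5 and 8459.5 UMIs, against 4726 in cluster 1. In cells with 5000 to 8000 UMIs, a window chosen after seeing the data, the sum was 7389 CPM (7215 to 7566) in cluster 1, 2654 CPM (2512 to 2801) in cluster 3 and 2952 CPM (2791 to 3118.5) in cluster 5. Each cluster was also cut into 3 equal parts by depth. The sum was higher in the deepest than in the shallowest cells of cluster 1 (7287 and 6761 CPM), cluster 7 (5080 and 4615 CPM) and cluster 9 (6525 and 4265 CPM). It was lower in the deepest cells of cluster 2 (4139 and 5173 CPM), cluster 6 (4227.5 and 5935 CPM) and cluster 10 (3414 and 4750 CPM), and the intervals overlap in clusters 3, 4 and 5. It was also lower in the deepest cells of cluster 11 (6694 and 8927 CPM) and of the endothelial-like cells (5919 and 8952 CPM), and higher in those of cluster 12 (7499 and 3828.5 CPM). Over 8 clusters of the large size tumor, without its small clusters 9 and 10, the same r was -0.16. The clusters of each tumor come from 1 library, so r is a description.

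**Figure D3:**
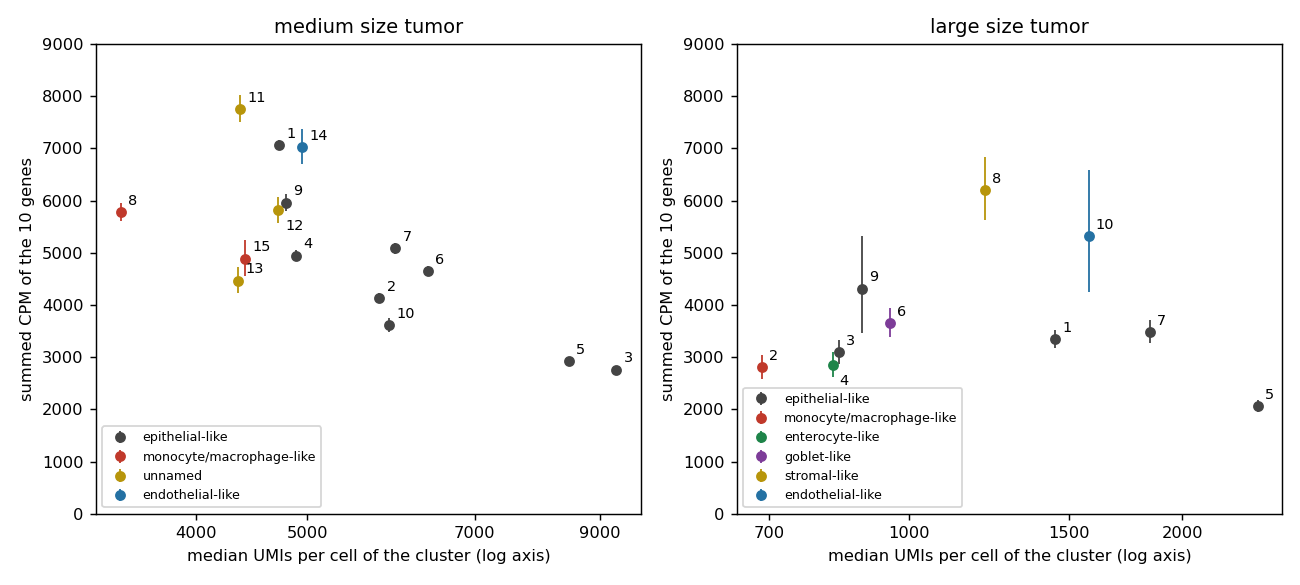
Summed CPM of the 10 genes in each cluster (numbered points, exact 95% Poisson intervals as bars) against the median UMIs per cell of that cluster on a log axis, for the medium (left) and large (right) size tumor, colored by cell class. The deepest epithelial-like cluster in each panel, cluster 3 on the left (2762 CPM) and cluster 5 on the right (2062 CPM), has the lowest sum.

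The genes whose level over the 15 clusters was most like the summed members, among 2792 genes with at least 1000 UMIs, were Btg2 (r = 0.88), an antiproliferative early response gene, Clk1 (0.86), a kinase of splicing factors, Dusp1 (0.85), a MAP kinase phosphatase and early response gene, Tra2b (0.83), a splicing factor, and Shisa5 (0.82). Of the members, Fosb followed their sum most closely (0.93) and Ier3 least (0.43). Hspa1a had r = 0.67 and Hsp90ab1, a largely constitutive chaperone, -0.33. Among the other lists, 5 of 37 other early response genes passed the 4-fold spread over the epithelial-like clusters (Gadd45a, Rhob, Cyr61, Klf2 and Sgk1), as did 1 of 16 heat shock genes (Hspa1a) and 4 of 9 mRNAs bound by ZFP36 (Ptgs2, Ier3, Il23a and Cxcl1), where the share of all genes was 9.62%. None of 10 AP-1 relatives, 20 regulators and 11 ERK feedback genes did. In the large size tumor other genes were most like the sum, over 8 clusters and 303 genes with at least 1000 UMIs. They were led by Arf4 (0.77), Sec61g (0.64) and Pcbp2 (0.61).

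Detection of the members in single cells was compared after thinning each cell to 2500 UMIs. In the epithelial-like cells a median of 4 of the 10 genes had a UMI, and 49.1% of cells (47.1 to 51.2) had 5 or more. Without thinning this share was 73.1%, so it rests on depth. The monocyte/macrophage-like cells had 5 or more in 66.4% (59.95 to 72.4). The members tended to be found in the same epithelial-like cells. Spearman's rho over cells was above 0 for all 45 pairs there, with a median of 0.297 and a range from 0.051 to 0.571. Fos had a UMI in 84.8% of cells with Jun and in 51.8% of cells without it. Jun was seen in 72.8% of cells with Atf3 and in 28.2% of those without. Joint detection was not limited to the members. Fos had a UMI in 85.5% of cells with the heat shock gene Hspa1a and in 53.4% of those without, with a rho of 0.50. Ier3 and Fos were less linked over all epithelial-like cells, since Fos had a UMI in 71.8% of cells with Ier3 and in 64.3% of those without, with a rho of 0.08. Their levels run in different orders over the clusters, and within clusters rho for this pair went from 0.02 in cluster 3 to 0.27 in cluster 7, with 0.20 in cluster 1. In the monocyte/macrophage-like cells 37 of 45 pairs were above 0, with a median rho of 0.132 and a minimum of -0.187. There Fos had a UMI in 57.0% of cells with Jund and in 73.2% of those without, and in 66.3% and 67.9% of cells with and without Fosb. Within cluster 1 alone the median rho over all pairs was 0.419, and in cluster 5 it was 0.198.

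Cluster 1 was not uniform. Of its 505 cells, 176 (34.9%) had 0 to 3 members, 108 (21.4%) had 4 to 6 and 221 (43.8%) had 7 to 10, and the number of cells was lowest at 4 members (30 cells, with 55 cells at 3 and 79 cells at 8), leaving the extreme values 0 and 10 aside. Lesser dips were seen in cluster 2 (53 cells at 3, 27 at 5 and 40 at 6 members), cluster 4 (37 cells at 4, 20 at 5 and 29 at 7), cluster 7 (24 cells at 4, 17 at 6 and 30 at 7) and cluster 9 (22 cells at 5, 11 at 7 and 18 at 8). Cluster 3 peaked at 1 member, with a small rise at 5 (38 cells, against 30 cells at 4) and none at 8 (10 cells), and had 57.3% of its 328 cells at 0 to 3 members and 14.3% at 7 to 10. The cells at these 2 ends of cluster 1 had medians of 4222 and 5106 UMIs, and Krt18 in 100% of them. Their ribosomal protein genes summed to 230170.5 and 236273 CPM, while the nuclear RNA Malat1 stood higher in the cells with more members, at 20948 and 33428 CPM. In cluster 3 Malat1 was at 9162 CPM in cells with 0 to 3 and 13608.5 CPM in cells with 7 to 10 members. The cells with 7 to 10 members had Hspa1a in 82.4% and the phosphatase gene Dusp1 in 83.3%, and those with 0 to 3 members had them in 27.8% and 18.8%. The summed heat shock list was at 10766 CPM in the first and 5375 CPM in the second. In cluster 6, where Ier3 and Junb peak, Hspa1a was in 52.9% of cells with 7 to 10 members and 8.93% of those with 0 to 3. These ranges were cut from the members' own detection, so their member levels are no finding, and the part of dissociation was not tested.

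**Figure D4:**
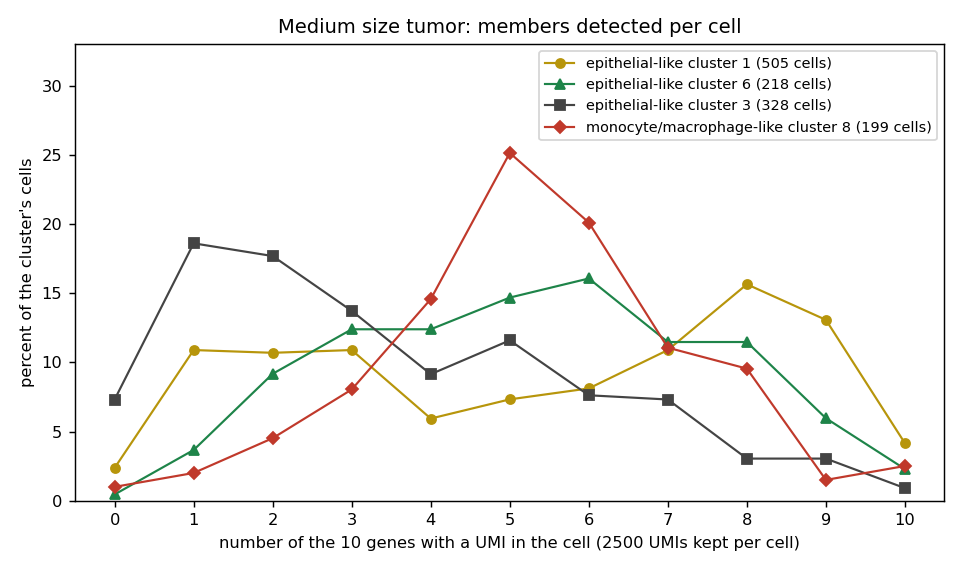
Percent of the cells of 4 clusters of the medium size tumor (y) by how many of the 10 genes had a UMI after thinning to 2500 UMIs per cell (x). Cluster 1 has a low point at 4 genes (5.94% of cells) between a plateau at 1 to 3 and a peak at 8 genes (15.6%), cluster 3 peaks at 1 gene (18.6%), and the monocyte/macrophage-like cluster 8 peaks at 5 genes.

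In the large size tumor the summed level was 2848 CPM (2765 to 2932) in the 849 epithelial-like cells and 2804 CPM (2574 to 3048) in the 253 monocyte/macrophage-like cells, so these classes did not differ beyond counting error. The 50 stromal-like cells had the highest sum among classes of at least 50 cells, 6207 CPM (5629.7 to 6828), and the goblet-like cells had 3660 CPM (3386 to 3950). Ier3 was again higher in the monocyte/macrophage-like than in the epithelial-like cells, at 724 against 281 CPM (2.57-fold, 2.12 to 3.12), and Egr1 was lower, at 209 against 583 CPM (2.79-fold, 2.04 to 3.91). These were 1 of 9 tested members higher and 1 lower, against 9.30% and 22.4% of 2302 genes. Zfp36 had 13 UMIs in that class and a ratio of 1.38 with an interval from 0.703 to 2.50. Fosb and Ier2 lay on opposite sides of the epithelial-like level in the 2 tumors, with ratios for Fosb of 0.929 in the medium and 1.51 in the large size tumor and for Ier2 of 1.02 and 0.481, and in the medium size tumor both intervals span 1.

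The stromal-like cells, which express Col1a1 in 72.0% of thinned cells, had 5 of 9 tested members past 2-fold higher, against 6.50% of 2140 genes, and none lower, against 19.2%. Fosb was at 455 against 111 CPM (4.09-fold, 2.70 to 6.02), Fos at 2216 against 778 CPM (2.85-fold, 2.39 to 3.37), Jun at 440 against 162 CPM, Egr1 at 1526 against 583 CPM and Ier3 at 587 against 281 CPM. In these cells Nr4a1, Dusp1 (1203 against 271 CPM), Klf4 and Btg2 were also among 9 of 23 other early response genes past 2-fold higher, and Hspb1, Hspa1a (792 against 308 CPM), Bag3 and Dnajb1 were 4 of 12 heat shock genes past it. Lower by as much were 2 of those early response genes (Gadd45a and Klf10) and 1 heat shock gene (Hspd1). The part of the heat shock genes in the member levels was not tested.

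The large size tumor also held 212 enterocyte-like and 158 goblet-like cells, named from intestinal markers, and whether they are intestinal tissue or carcinoma cells was not tested. Their sums were 2847 CPM (2615 to 3094) and 3660 CPM, the first at the level of the epithelial-like cells and the second above it. In enterocyte-like cells Atf3 stood at 748 against 304.5 CPM (2.455-fold, 2.03 to 2.96) and Zfp36 at 128 against 48.0 CPM, both past 2-fold higher, while Ier3 was at 66.6 against 281 CPM (4.22-fold lower, 2.44 to 7.99) and Ier2 at 87.05 against 233 CPM, both past 2-fold lower. These are 2 of 10 members each way, and the same contrast had 13.4% of 2322 genes higher and 36.3% lower, with a median log2 ratio of all genes of -0.53. In goblet-like cells 1 of 9 tested members, Jun, was past 2-fold higher (344 against 162 CPM) and 1, Ier3, past it lower (49.9 against 281 CPM, 9 UMIs), against 6.72% of 2276 genes higher and 15.4% lower. Of 5 AP-1 relatives tested, 3 (Fosl2, Maff and Fosl1) were past 2-fold higher in enterocyte-like cells. The heat shock genes were split. Of 13 tested, 2 were past 2-fold higher in enterocyte-like cells (Hspa1b and Bag3) and 5 lower, and in goblet-like cells 2 were higher (Hspa1b and Hspa1a, the latter at 715 against 308 CPM) and 1, Hspb1, lower.

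Among the 4 epithelial-like clusters with at least 50 cells in the large size tumor, none of 9 tested members passed a 4-fold spread, against 5.24% of 2042 genes. The sum was lowest in cluster 5, led by mitotic genes (Ube2c, Cenpa, Birc5), at 2062 CPM (1949.8 to 2178), and highest in cluster 7, led by the gastrokine genes, at 3483 CPM (3269 to 3707), whose interval overlaps that of cluster 1 at 3347 CPM (3179 to 3522). Fos ran from 619.6 CPM in cluster 5 to 1155 CPM in cluster 7, and Egr1 from 389 to 775 CPM in the same clusters. Ier3 ran from 182 CPM in cluster 3 to 463 CPM in cluster 1, led by Ggct and Ramp1. This cluster of 272 cells holds 3 of 11 epithelial markers, with Epcam, the epithelial adhesion gene, at 81.25 CPM against 849 CPM over all epithelial-like cells. In each tumor, then, the cluster led by mitotic genes had the lowest sum and the deepest cells among the epithelial-like clusters of at least 50 cells. In the large size tumor the shallowest part of cluster 5, with a median of 1596 UMIs, had 1529 CPM (1296 to 1792). The middle part of cluster 1, with a median of 1449 UMIs, had 3709 CPM (3386 to 4054), and that of cluster 7, with a median of 1857 UMIs, 2997 CPM (2643 to 3385). Within cluster 5 the sum was 2680.5 CPM in the middle and 1918 CPM in the deepest cells. At other settings up to 2 members passed 4-fold, and the share of all genes was not counted there. Cells thinned to 500 UMIs had 5 or more members in 2.12% (1.26 to 3.33), and rho was above 0 for 41 of 45 pairs, with a median of 0.076. Over all epithelial-like cells Fos had a UMI in 43.7% (36.4 to 51.2) of cells with Egr1 and in 18.8% (15.9 to 21.95) of cells without it, and in 41.8% of cells with Jun and 22.6% of those without. In cluster 1, with 272 of the 849 cells, Fos was in 24.6% (14.8 to 36.9) of cells with Egr1 and 19.3% (14.2 to 25.4) of those without, so the intervals overlap there, and in cluster 3 in 56.0% (41.25 to 70.0) and 16.7% (11.5 to 23.05).

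Comparing the tumors, the epithelial-like cells of the large size tumor had lower levels of most of the members, and unequally so. The values given first leave out clusters led by genes of another list (cluster 1 of the medium and cluster 9 of the large size tumor). This leaves 1823 and 830 cells. The cluster left out of the medium size tumor holds 11 of 11 epithelial markers and the highest sum of its epithelial-like clusters. Counts over all epithelial-like cells follow. Jund stood at 78.1 CPM in the large and 308 CPM in the medium size tumor, 3.94-fold lower (3.295 to 4.76). Fosb, at 108 against 290.1 CPM, was 2.68-fold lower (2.30 to 3.15), and Junb, at 267 against 589 CPM, was 2.20-fold lower (1.995 to 2.43). Jun, at 157 against 322.5 CPM (2.06-fold, 1.81 to 2.35), fell just short of 2-fold once 10 CPM were added. Fos was close in both, at 778 and 873 CPM, and Egr1 was the one member above its level in the medium size tumor, at 589 against 454.5 CPM (1.30-fold, 1.21 to 1.39). Atf3, Ier2, Ier3 and Zfp36 were 1.16-, 1.30-, 1.28- and 1.885-fold lower. So 3 of 10 members were past 2-fold lower, against 8.01% of 8936 genes, and none higher, against 2.44%. Over all epithelial-like cells there were 4 (Jund, Fosb, Jun and Junb), also against 8.01%, of 9363 genes, and none higher, against 2.51%. With 20 principal components Ier3 stood at the same level in both tumors (0.0063 on the log2 scale). Over all alternatives Egr1 stayed above its level in the medium size tumor, by 0.05 to 0.37 on the log2 scale.

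Base composition moved with the ratio between the tumors over genes at large, and the members lay on either side of their GC peers. In the last 500 bases of their transcripts, which 3′ libraries sample, Jund has a GC content of 56.2%, Junb 53.6% and Ier2 55.2%, whereas Fos has 32.6% and Egr1 38.6%. Genes within 2 percentage points of GC of Jund had a median log2 ratio of -0.58, with 24.9% of 776 genes past 2-fold lower, and those near Junb had -0.52, with 20.25% of 1106. Genes near Fos had a median of 0.18, with Fos itself at -0.16. Jund, at -1.85, and Junb, at -1.11, lie below those medians, as does Fosb, at -1.35 where genes of like GC (47.0%) had -0.20 and 6.99% past 2-fold lower. Ier2, at -0.37, lies above the -0.57 of its GC peers, and Atf3 (-0.21 against -0.18) and Ier3 (-0.34 against -0.27) lie near theirs. Jun (-0.996 against -0.0079) and Zfp36 (-0.78 against 0.03) lie below their GC peers and Egr1 (0.37 against 0.04) above, with 3.155%, 2.08% and 1.90% of those peers past 2-fold lower. Tumor, library, depth and animal cannot be told apart between the 2 sizes. Of the lists, 1 of 15 heat shock genes was higher (Hspe1) and 2 lower (Hspb1 and Hspa8), and of 37 other early response genes 3 were higher (Errfi1, Gadd45a and Nfkbiz) and 4 lower (Ctgf, Rhob, Gadd45g and Ppp1r15a). These counts stand against 2.44% of all 8936 genes higher and 8.01% lower.

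The monocyte/macrophage-like cells, 235 in the medium size tumor (clusters 8 and 15) and 253 in the large (cluster 2), gave a comparison chosen after the epithelial-like one had been seen. All 10 members stood lower in the large size tumor, with 6 past 2-fold (Jun, Junb, Jund, Ier2, Ier3 and Zfp36), against 11.3% of 1437 genes lower, and none higher, against 6.96%. Ier3, at 724 against 1651 CPM, was 2.28-fold lower (1.92 to 2.73), and Junb, at 459 against 1159 CPM, 2.53-fold lower (2.035 to 3.17). Zfp36 (13 UMIs), Jund (15 UMIs) and Jun (19 UMIs) rest on few counts in the large size tumor. Among genes of GC content like that of Jund 37.4% of 131 were past 2-fold lower, and of those like Ier2 36.1% of 169. Zfp36, at -1.635 on the log2 scale, and Jun, at -1.595, had GC peers with medians of 0.24 and 0.15, of which 3.86% and 5.77% were past 2-fold lower. The intervals of Fos (0.706 to 1.01) and Atf3 (0.528 to 1.195) span 1. Egr1, which stood higher in the epithelial-like cells of the large size tumor, stood lower here, at 209 against 377 CPM. Of 24 other early response genes 1 was past 2-fold lower (Ppp1r15a) and none higher, with a list median of -0.0076 against 0.04 for all genes on the log2 scale. Epithelial keratin RNA in these cells also stood lower in the large size tumor, with Krt18 at 35.7 against 222.5 CPM and Krt8 at 56.1 against 143 CPM. Both also stood lower in the epithelial-like cells (Krt18 at 1036 against 4257 CPM, Krt8 at 844 against 3137 CPM). Epcam moved less, at 76.5 against 85.9 CPM in the monocyte/macrophage-like and 849 against 1095 CPM in the epithelial-like cells. The part of epithelial RNA in the member levels was not tested. The 2 contrasts share the libraries, so they are not independent.

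**Figure D5:**
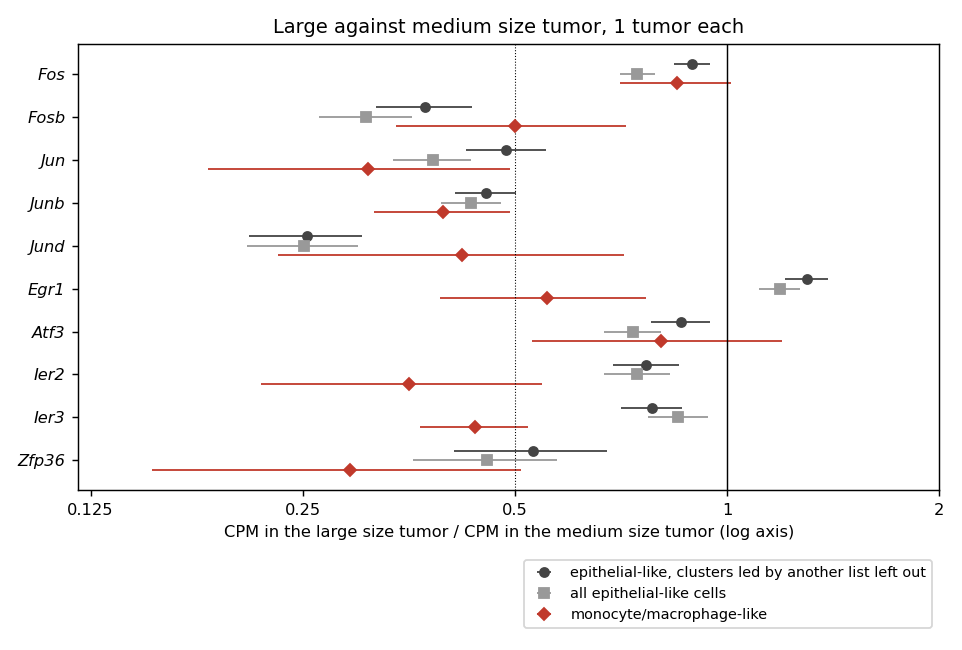
CPM in the large over CPM in the medium size tumor (log axis) for each of the 10 genes, in epithelial-like cells without clusters led by another list, in all epithelial-like cells and in monocyte/macrophage-like cells, with 95% counting intervals as bars, a solid line at 1 and a dotted line at 0.5. Jund lies farthest left in the epithelial-like cells (0.254), and Egr1 is the one gene right of 1 there (1.30).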

How the data were processed

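Single-cell 3′ RNA libraries of 2 KPC mouse tumors were analysed, from 2 tables that pool the 4 technical replicates of each tumor. The authors sequenced the libraries on an Illumina HiSeq 2500 and aligned and counted the reads with CellRanger; the deposited values are whole UMI counts per gene and cell barcode, without normalization. The submitters' processing notes name build mm10; the CellRanger version, annotation and barcode filter are not given in the sources used here. The 13 mitochondrial rows are at 0 in both tables. One part of the genotype is not reported here.

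The members and lists were chosen with earlier results of these data known. Each tumor was clustered on its own with Seurat 5.3.0 in R 4.3.3 (scale to 10000, 2000 variable genes less members and list genes, 10 principal components, resolution 0.8). All barcodes were kept; Scrublet, run in scanpy 1.11.5, called 0 and 9 doublets. Clusters were named from marker lists (a marker in at least 10% of the cells and at 25% of its highest cluster level, at least 3 markers, no other class at 60% of its markers), with thresholds set after values were seen, and a cluster with at least 2 leading intestinal markers was named for them. UMIs were summed per group; genes with at least 100 UMIs were tested, 10 CPM were added to both sides of a ratio, and 2-fold (4-fold over clusters of at least 50 cells) marked a call. Intervals cover counting error only. Named genes were the 10 members, at most 4 list genes per direction by ratio and the 5 genes most correlated with the sum; a few list genes named beyond these were chosen after their values were seen. Gene ends came from GENCODE vM21 and promoters from RefSeq. The functions were tested on simulated data. TMM scaling used edgeR 4.0.16.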

Additional observations from a re-analysis of the deposited data

How the results depend on the processing

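No paired analysis was possible because the technical replicates are pooled in each table and no test was run, so leaving out a replicate could not be run either. Of 57 recomputed counts and shares, 47 stayed within 1.5 times the count or within the counting interval and 10 moved. The number of members past a 4-fold spread over the epithelial-like clusters of the medium size tumor, 3 as reported, was 8 with all variable genes in the clustering, 6 at a resolution of 1.2, 5 with 1 CPM added and, chosen after seeing the data, 1 without clusters 3 and 5. In the large size tumor this number, 0 as reported, was 1 at a resolution of 0.4, 2 at a resolution of 1.2, 1 with 20 principal components and 2 without the 5% of cells with the highest Scrublet score. The share of all genes past 4-fold was not counted at these settings of either tumor. The share of epithelial-like cells with 5 or more members, 49.1% and 2.12% after thinning, was 73.1% and 22.5% at the cells' own depth, since more UMIs are then counted. The causes of the other moves were not tested. Of 260 recomputed ratios of single genes, 252 kept their sign. Of 92 of them that belong to ratios reported past 2-fold, 85 stayed past it. Between the tumors, the ratios over all epithelial-like cells are the reported ones in these tallies. At the settings run, 2 or 3 members were past 2-fold in the contrast of monocyte/macrophage-like with epithelial-like cells (medium size tumor). Of all 9401 genes there, 576 were higher and 1363 lower as reported, and 769 and 2774 with 1 CPM added. In the large size tumor 3 to 5 members were lower. All epithelial-like cells gave 4, where 750 of 9363 genes were lower. There were 5 with 1 CPM added (1826 of 9363 genes) and 5 without medium cluster 6 and large cluster 1 (750 of 9048 genes). TMM scaling moved the median log2 ratio of all genes between the tumors from -0.13 to -0.08. Further alternatives added after seeing the data left out clusters with few epithelial markers or led by another list and kept only cells with 5000 to 8000 UMIs.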
